A study of Homo sapiens with 15 samples.

Results

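Gene expression in 4 clones of the BT474 breast cancer cell line that resist ado-trastuzumab emtansine (T-DM1) was compared with that in the parental BT474 line. The members are 15 arrays, which are all the arrays of the series: 12 from the clones, labelled C#1, C#2, C#3 or C#6 and named clone 1, clone 2, clone 3 and clone 6 here, and 3 from the parental line. They were chosen by their titles. Each line has 3 arrays, labelled as biological replicates. All lines share the BT474 background and the same serum-containing medium. The clones arose from parental cells after long exposure to T-DM1, were obtained, per the labels, by cloning from single cells and were kept in 5 nM T-DM1 for 3 months. The labels do not state whether the drug was present at harvest. No clone grown without selection was measured, so resistance, single-cell cloning and growth in the drug cannot be told apart. Arrays of 1 clone repeat its own culture and not the act of becoming resistant, and p-values measure the spread between these arrays.

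T-DM1 joins trastuzumab, an antibody against the growth factor receptor HER2, to DM1, a poison of microtubules. The conjugate binds HER2 at the cell surface, is taken up, and releases its drug after breakdown of the antibody in lysosomes. BT474 is a luminal, oestrogen receptor-positive breast cancer line with amplified HER2. Genes of receptor signalling, membrane traffic, lysosomes, microtubules, detoxification and luminal identity are therefore close to the drug's known route, and they are described first by their roles.

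Expression is on the deposited log2 scale, on which a difference of 1 is a doubling. Of 53617 probe sets on the array, 16098 carried 1 gene symbol, and 12147 genes passed a filter on dim signals. A gene was represented by its brightest probe set. The median of all probe sets was 4.03 to 4.10 in every array, and values near or below it are dim. Among genes described below, this holds for GPR155 and MIR30A in the parental arrays and for NRG3 in the clone arrays, among others. The arrays correlated within a line at 0.985 or above, and no pair held identical values. The luminal markers KRT19, KRT18, EPCAM, FOXA1, SPDEF, ERBB3, KRT8, ESR1 and GATA3 lay at the 67.2nd percentile of an array or higher in every array. ERBB2 and CDH1 carried no symbol in the table used here. Of the markers of other cells, 5 of 13 fibroblast, 9 of 17 leukocyte and 8 of 11 endothelial genes had a probe set. Of these, 3 fibroblast, 8 leukocyte and 5 endothelial genes passed the filter on dim signals. Only DCN, LUM and EMCN lay at or below the 40th percentile in every array. Mean levels over the fibroblast list were 3.59 to 3.66 in the parental arrays and 3.53 to 3.75 in the clone arrays. Those over the leukocyte list were 4.15 to 4.28 and 4.14 to 4.36, and those over the endothelial list were 4.07 to 4.13 and 3.91 to 4.13. None of these markers was called in every clone, and ESAM, an endothelial marker, was lower in the mean contrast. Their part in the results was not tested. In bulk RNA, fewer cells of a kind and less RNA per cell cannot be told apart. The upper quartile of the deposited values was 5.94 to 5.96 in the parental arrays and 5.80 to 5.89 in the clone arrays, so the groups did not overlap in this measure, and its part in the results below was tested through 2 other scalings.

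In every clone, 126 genes were higher and 443 were lower than in the parental line. Such a gene passed an adjusted p below 0.05 with the same sign in each of 4 limma contrasts, which share the parental arrays. These were 1.04% and 3.65% of the genes tested. Both shares rose with signal level. With genes split into 5 groups by mean level, the shares were 0.08% and 1.28% in the dimmest group. They were 2.51% and 5.72% in the brightest. The shares of all genes given beside function lists below are not matched for level. With the 4 clones weighted equally, the mean contrast called 892 genes higher (7.34%) and 1811 lower (14.9%). Taken singly, the clones had 6.03%, 5.47%, 6.22% and 7.73% of genes higher and 11.2%, 11.5%, 11% and 14.7% lower, in the order clone 1, 2, 3 and 6. Changes of at least 1.5-fold in each clone were found for 28 higher (0.231%) and 152 lower genes (1.25%). The median of the mean change was 0.57 over the 126 genes, -0.67 over the 443 genes and -0.01 over all genes tested. Of the 126 genes, 123 had every clone array above every parental array, and of the 443 genes, 436 had every clone array below. Such separation was met by 3.04% (above) and 7.85% (below) of all genes.

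**Figure D1:**
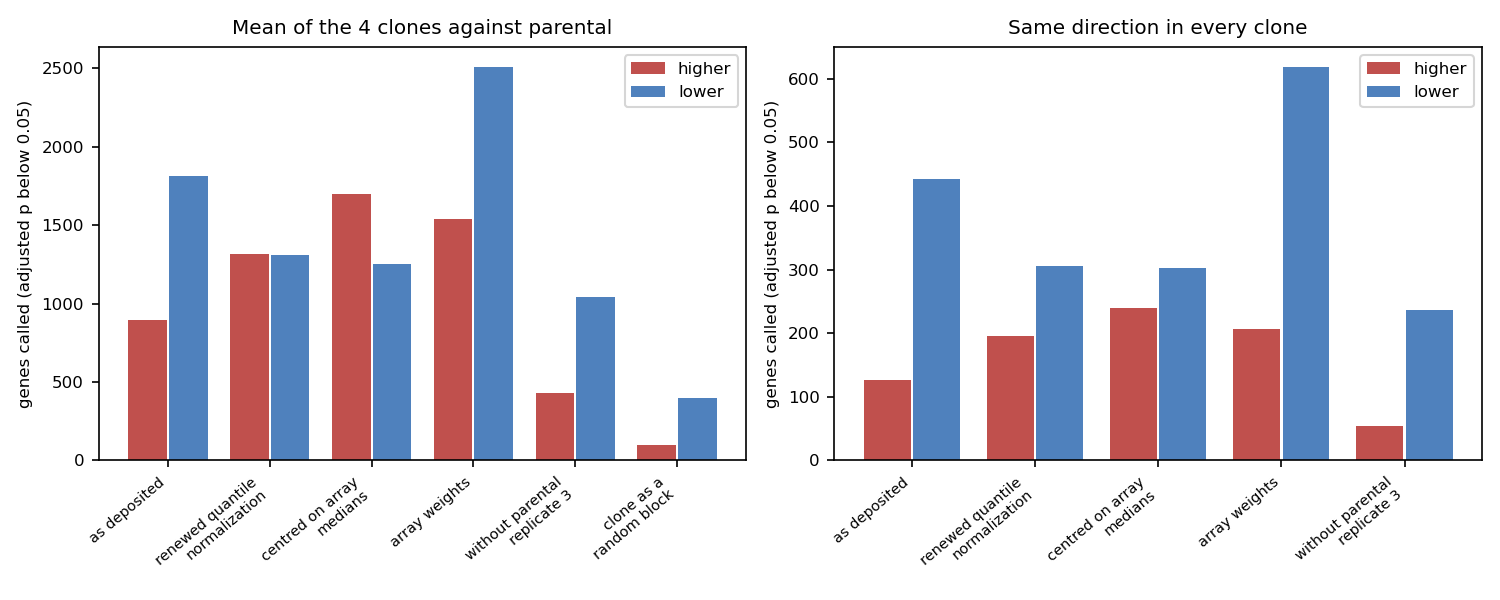
Genes called at an adjusted p below 0.05 as higher (red) and lower (blue) in the mean of the 4 clones (left) and in every clone (right), under 6 and 5 ways of processing. Lower genes outnumbered higher ones among genes called in every clone under each setting shown, while in the mean contrast centring gave 1697 higher and 1252 lower genes.

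The balance of higher and lower genes moved with the scaling. Lower genes made up 77.9% of the genes called in every clone as deposited, 61.0% after a renewed quantile normalization and 55.9% after centring each array on the median of its tested genes. In the mean contrast the shares were 67.0%, 49.9% and 42.5%. Of the 126 higher genes, 122 kept their call in every clone under both scalings, and of the 443 lower genes, 284 did. The parental arrays carried weight too: without parental replicate 3, 54 genes were higher and 237 lower in every clone, and 39 higher and 194 lower genes kept their call whichever 1 of the 15 arrays was left out. The filter was renewed each time, and 5 lower genes (ANXA1, DCDC2, EIF5A2, FSTL5 and MIR543) fell below it without a parental array. For these, that array was left out of the fit on the genes of the full fit, which kept the calls of all but ANXA1. The genes named below are mostly from these, and the arrays are given where a call ended.

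Clones 1 and 2 were hard to tell apart. Between them limma called 0 genes, with 807 at an unadjusted p below 0.05, against 1095 to 2041 genes called between other pairs of clones. Whether these clones arose separately is not told by the labels, so the 4 clones may not be 4 independent cases of resistance. Leaving out clone 1 or clone 2 moved neither count of genes called in every clone by more than 1.5 times, whereas without clone 3 there were 235 higher and 668 lower genes. When the clone entered as a random block, the mean contrast called 98 higher and 398 lower genes. With 1 mean per line, 4 clone means against 1 parental mean, 5 genes passed: CXCR4, FSTL5, FZD8, MIR3671 and NPY1R. In that fit, over all genes tested, 431 had an unadjusted p below 0.05 in the higher and 1041 in the lower direction.

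The strongest few genes frame the rest. CXCR4, the receptor of the chemokine CXCL12, rose in every clone by 2.06, 2.17, 1.92 and 2.23 in clones 1, 2, 3 and 6 (SE 0.15). In the order clone 1, 2, 3 and 6, which is used throughout, NPY1R, a neuropeptide Y receptor, fell, with changes of -3.45, -3.43, -3.11 and -3.88 (SE 0.18). FSTL5, a secreted follistatin-like protein, fell, with changes of -2.82, -2.72, -2.82 and -2.90 (SE 0.12). Genes at ranks 16 to 40 by their smallest change came below these. Their smallest changes were 0.47 to 0.67 when higher and -1.12 to -0.83 when lower. The ranks come from lists of unlike length, 126 higher and 443 lower genes, so sizes at the same rank cannot be compared between directions.

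**Figure D2:**
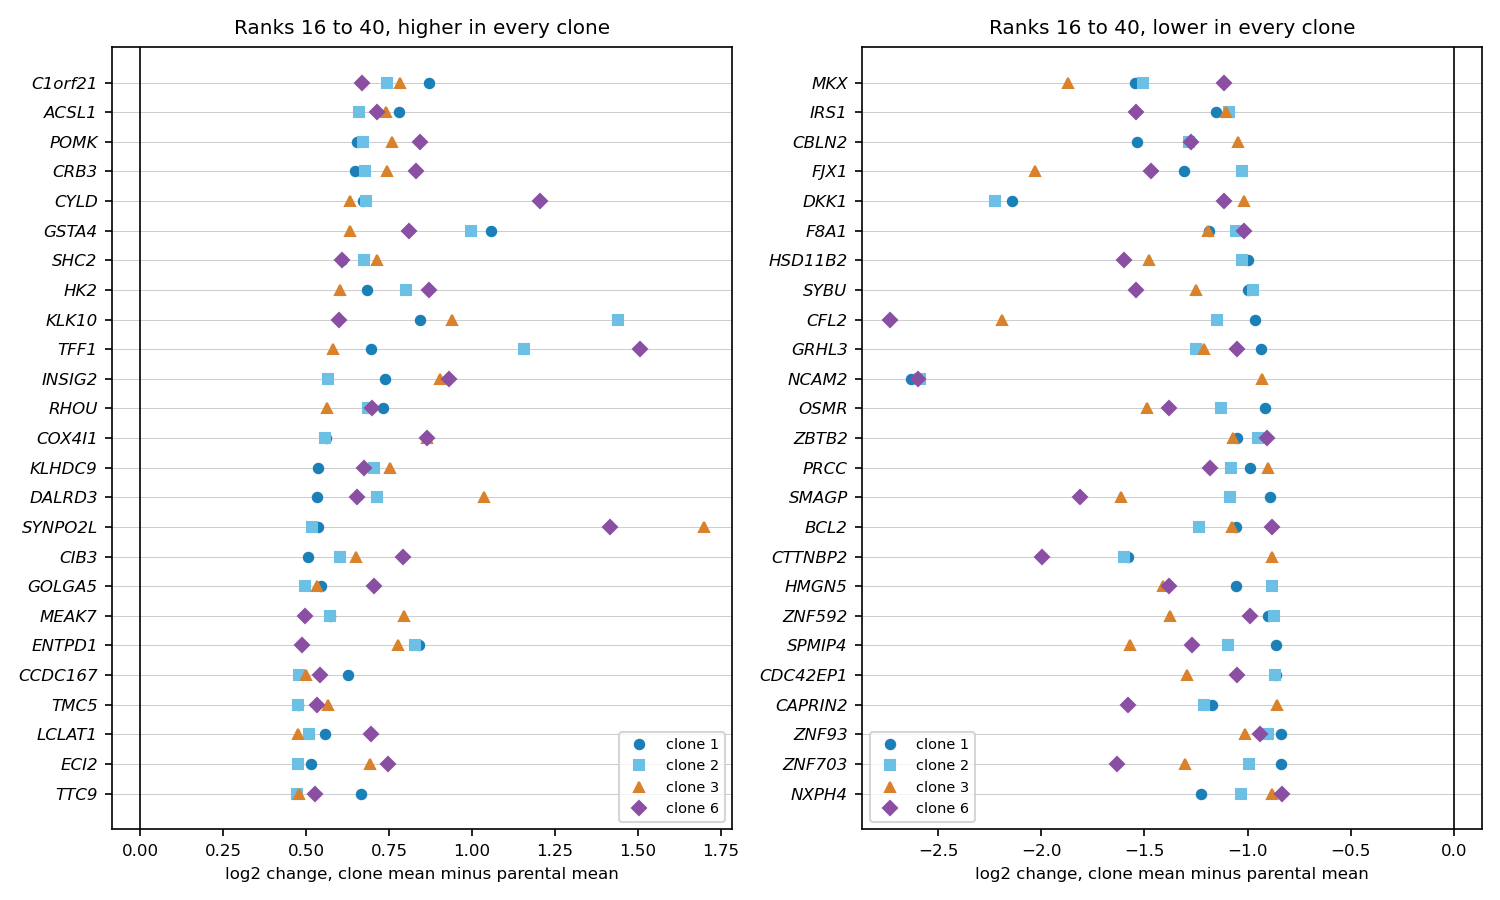
Log2 change of each clone mean from the parental mean for the 25 higher (left) and 25 lower (right) protein-coding genes at ranks 16 to 40, with 1 marker per clone. The 4 clones lie close together for ACSL1 (0.66 to 0.78) and apart for CFL2 (-2.73 to -0.97).

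The function lists were written with earlier results of these data known, so their counts describe and do not test. Listed G protein-coupled receptors moved in both directions. Of 28 G protein-coupled receptors tested, 3 rose and 4 fell in every clone, against 1.04% and 3.65% of all genes, with a median change over the list of 0.04. GPR155, a lysosomal membrane protein that senses cholesterol, stood at 3.80, 3.86 and 4.07 in the parental arrays. It read 5.01, 4.70 and 4.96 in clone 1, 4.89, 5.02 and 4.57 in clone 2, 5.16, 4.95 and 4.45 in clone 3, and 5.04, 4.62 and 4.79 in clone 6. No clone array reached down to the parental values, and the 4 clones were nearly equal. The rise was 0.98, 0.92, 0.94 and 0.91 (mean 0.94, SE 0.13, adjusted p = 0.000121). FFAR2, a receptor of short-chain fatty acids, was 5.16 to 5.65 in the parental arrays and 5.86 to 7.14 in the clone arrays, and rose 2.01-fold in the mean (SE 0.13 on the log2 scale). ADGRL2, a latrophilin adhesion receptor, was 6.45 to 6.54 in the parental arrays and 4.73 to 5.42 in the clone arrays, and fell 2.65-fold in the mean (adjusted p = 1.45e-07). ADGRG6, another adhesion receptor, fell, with changes of -0.59, -0.61, -0.65 and -0.71. The call of ADGRE5 in clone 1 was lost without clone 1 replicate 1, parental replicate 1 or parental replicate 3 (changes of -0.53 to -0.45).

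Wnt signalling runs from secreted ligands and their inhibitors through Frizzled receptors to beta-catenin. Of 25 genes of this pathway tested, 3 fell and 0 rose in every clone (12% lower against 3.65% of all genes). All 3 kept their call whichever array was left out. In the mean contrast 8 were lower and 1 was higher, against 14.9% and 7.34% of all genes, and the median change of the list was -0.09, or -0.01 under both other scalings. DKK1, a secreted inhibitor of Wnt receptors, was 8.23, 8.47 and 8.64 in the parental arrays. It was 5.93, 6.65 and 6.33 in clone 1 and 5.90, 6.03 and 6.73 in clone 2, against 7.43, 7.49 and 7.36 in clone 3 and 7.05, 7.69 and 7.25 in clone 6. Every clone lay below the parental line, and clones 1 and 2 lay furthest below. The change was -2.14, -2.22, -1.02 and -1.11 (SE 0.21), and its size differed among clones (F test, adjusted p = 0.000422). FZD8, a Frizzled receptor, read 7.24, 7.37 and 6.85 in the parental arrays and 4.94 to 5.63 in the 12 clone arrays, with a median of 5.37. It fell 3.51-fold in the mean, and its changes in the 4 clones were -1.94 to -1.70. FZD6, another Frizzled receptor, fell, with changes of -0.41, -0.50, -0.67 and -0.83. Outside the list, PYGO1, a nuclear partner of beta-catenin, fell 2.60-fold in the mean.

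In growth factor signalling, single members changed. IRS1, the adaptor that carries insulin and IGF signals to PI3K, was 6.67, 6.73 and 6.94 in the parental arrays and 4.76 to 6.15 in the clone arrays. It fell, with changes of -1.15, -1.09, -1.10 and -1.54 (mean fold 2.33, adjusted p = 0.000274). In the list of 19 insulin, PI3K and AKT genes it was the 1 member lower in every clone, beside 1 higher. These were 5.26% each, against 3.65% and 1.04% of all genes, and the median change was 0.00. In the mean contrast 4 of the list were higher and 3 lower, against 7.34% and 14.9% of all genes. NRG3, a ligand of the HER4 receptor, was 4.26 to 4.49 in the parental arrays and 3.50 to 3.91 in the clone arrays, and fell, with changes of -0.67 to -0.57. Its values in the clones lay below the median of all probe sets. NRG3 was the 1 member of 10 tested HER family receptors and ligands called in every clone (10% lower against 3.65% of all genes). GSK3A, a kinase downstream of AKT, fell, with changes of -0.66, -0.71, -0.65 and -0.73.

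Heparan sulphate proteoglycans are surface proteins with long sugar chains that bind growth factors. Of 35 genes of heparan and chondroitin sulphate tested, 5 fell and 0 rose in every clone (14.3% lower against 3.65% of all genes), while the median change of the list was -0.05. GPC6, a glypican core protein anchored to the membrane, was 7.31, 7.18 and 7.35 in the parental arrays. Clone 3 read 4.92, 5.60 and 5.59, and the arrays of the other clones read 4.16 to 4.60. The loss was thus smaller in clone 3 than in the others (changes of -2.87, -2.86, -1.91 and -3.00, F test adjusted p = 0.000249). SDC2, the syndecan 2 core protein, fell, with changes of -1.27, -1.30, -0.76 and -1.55 (SE 0.13). GPC3, another glypican, was 4.65 to 4.91 in the parental arrays and 3.72 to 4.34 in the clones, and fell 1.76-fold in the mean. The other 2 are enzymes: EXT1, which builds heparan sulphate chains, and CHST11, which sulphates chondroitin. The call of EXT1 in clone 3 was lost without clone 3 replicate 3 or parental replicate 3 (-0.35 to -0.34), and that of CHST11 in clone 2 or 3 without any 1 of 6 arrays, all 3 parental arrays among them (-0.43 to -0.31). Without parental replicate 3 the count of the list was 3.

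**Figure D3:**
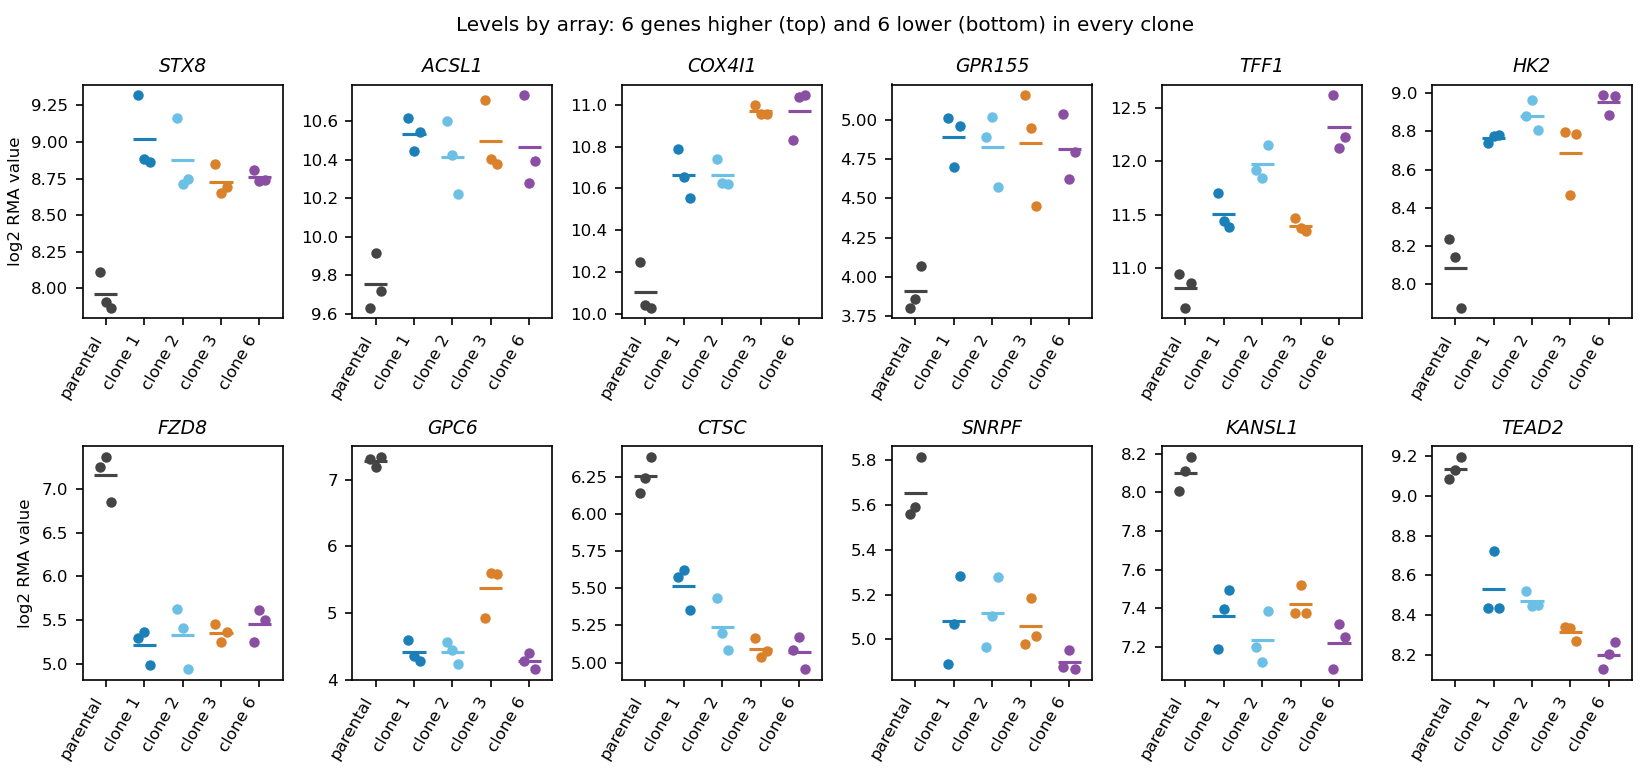
Deposited log2 values of 6 genes higher (top) and 6 lower (bottom) in every clone, with 1 point per array, a bar for the mean of each line and a separate vertical range for each gene. No clone array overlaps the parental arrays for any of the 12 genes, and GPC6 is less far down in clone 3 than in the other clones.

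Of 25 luminal and oestrogen receptor genes tested, 2 rose and 3 fell in every clone (8% and 12%, against 1.04% and 3.65% of all genes). In the mean contrast 2 were higher and 9 lower, against 7.34% and 14.9% of all genes, with a median of -0.19 as deposited and -0.11 after centring. The risers were TFF1 and TFF3, secreted trefoil peptides of mucus-producing cells that oestrogen induces in breast cancer. TFF1 was 10.95, 10.63 and 10.86 in the parental arrays, 11.70, 11.44 and 11.39 in clone 1, 11.91, 11.85 and 12.15 in clone 2, 11.47, 11.38 and 11.34 in clone 3, and 12.62, 12.12 and 12.22 in clone 6. It rose least in clone 3 and most in clone 6 (0.58 and 1.51, F test adjusted p = 0.000314). TFF3 rose by 0.69, 1.03, 1.17 and 1.24 (SE 0.17). GATA3, the transcription factor that maintains luminal cells, was 8.98, 9.17 and 9.22 in the parental arrays, 8.22, 8.44 and 8.42 in clone 3, and 5.65 to 6.92 in the other clones. Its change of -2.89, -3.14, -0.76 and -2.36 was among the most uneven of the genes called in every clone (range 2.38). ESR1, the oestrogen receptor, changed by -0.84, -0.61, -0.43 and -0.55, and its clone 3 call was lost under both other scalings and without any 1 of 8 arrays, all 3 parental arrays among them (-0.48 to -0.36). BCL2, the survival protein and a known oestrogen receptor target, fell, with changes of -1.05, -1.24, -1.08 and -0.88 (SE 0.14).

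Some genes of basal and mesenchymal cells were also lower. Of 14 tested, 3 were lower and 0 higher in every clone (21.4% lower against 3.65% of all genes), with a median of -0.05 over the list. VIM, the intermediate filament vimentin, changed by -1.10, -1.03, -0.53 and -1.24. Its clone 3 call was lost without parental replicate 1 or 2 (-0.47 and -0.44). TWIST1, a mesenchymal transcription factor, changed by -0.54, -0.67, -1.06 and -1.10, with the clone 1 call lost without any 1 of 4 arrays (-0.52 to -0.42). The clone 3 call of ANXA1 was lost without any 1 array of clone 3 (-0.46 to -0.40). Without a parental array ANXA1 fell below the filter, and on the genes of the full fit its clone 3 call was lost without parental replicate 1 or 3 (-0.26 and -0.46). Without parental replicate 1 no call of the list was left.

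Traffic of membranes and cargo showed single, well separated changes. STX8, a SNARE protein of late endosomes, was 8.11, 7.91 and 7.87 in the parental arrays and 8.65 to 9.32 in the clone arrays, with a median of 8.78. It rose 1.84-fold in the mean (SE 0.11 on the log2 scale, adjusted p = 3.31e-05). It was the 1 of 45 SNARE and exocyst genes that rose in every clone, beside 1 that fell. These were 2.22% each, against 1.04% and 3.65% of all genes. EPN1, an epsin that bends the membrane at clathrin-coated pits, was 7.96 to 8.28 in the parental arrays and 7.04 to 7.51 in the clones, and fell, with changes of -0.84, -0.76, -0.70 and -0.86. In the list of 41 clathrin and endosome genes, 3 fell and 1 rose in every clone (7.32% and 2.44%, against 3.65% and 1.04% of all genes), and EPN1 was the 1 that kept its call whichever array was left out; without parental replicate 3 the list held 1 lower gene.

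Lysosomal enzymes gave 2 lower genes among 23 tested (8.7% against 3.65% of all genes), none higher, and a list median of 0.04. CTSC, the dipeptidyl peptidase cathepsin C, was 6.14, 6.24 and 6.39 in the parental arrays and 4.96 to 5.62 in the clone arrays. It fell, with changes of -0.74, -1.02, -1.16 and -1.18 (mean fold 2.04, adjusted p = 1.26e-06). TPP1, a tripeptidyl peptidase of lysosomes, was 8.40 to 8.49 in the parental arrays and 7.27 to 7.94 in the clones, and fell in every clone, with the smallest change in clone 3 (-0.63) and the largest in clone 6 (-1.16). MAP1LC3A, an LC3 protein of autophagosome membranes, fell, with changes of -0.82, -0.85, -1.61 and -1.16. It was 1 of 2 lower genes among 38 lysosomal membrane and autophagy genes (5.26% against 3.65% of all genes). The call of the other, ATG13, ended without single arrays.

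MVP, the major vault protein, was the 1 gene tested of the drug efflux and vault list. It was 6.78, 6.65 and 6.70 in the parental arrays and 7.40 to 8.19 in the clone arrays, and rose by 1.02, 1.00, 1.21 and 1.35 (SE 0.14). Of 35 glutathione, NRF2 and detoxification genes, 3 rose and 1 fell in every clone (8.57% and 2.86%, against 1.04% and 3.65% of all genes), with a median of 0.10. GSTA4, a glutathione transferase for lipid aldehydes, read 6.86, 6.63 and 6.56 in the parental arrays and 7.08 to 7.82 in the clones. It rose by 1.06, 1.00, 0.63 and 0.81 and kept its call whichever array was left out. GPX2, a glutathione peroxidase, changed by 0.90, 0.85, 1.13 and 1.53, and its call in clone 1 ended without clone 1 replicate 2 (0.61), that in clone 2 without clone 2 replicate 2 (0.66), and both without parental replicate 3 (smallest change 0.74). PRDX1, a peroxiredoxin, changed by 0.28 to 0.33, and a call of it ended without any 1 of 12 arrays.

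Energy metabolism and lipid handling held single genes in both directions. ACSL1, which activates long-chain fatty acids, was 9.63, 9.91 and 9.72 in the parental arrays and 10.22 to 10.73 in the clone arrays. It rose by 0.78, 0.66, 0.74 and 0.71 (mean fold 1.65, adjusted p = 0.000178). ECI2, an enzyme of fatty acid oxidation, rose by 0.51, 0.47, 0.69 and 0.75. LCLAT1, an acyltransferase that remodels cardiolipin, rose by 0.56, 0.51, 0.48 and 0.70. HK2, the hexokinase that starts glycolysis, was 8.23, 8.14 and 7.87 in the parental arrays and 8.47 to 8.99 in the clones, and rose 1.67-fold. COX4I1, a subunit of cytochrome c oxidase, was 10.25, 10.04 and 10.03 in the parental arrays and 10.55 to 11.05 in the clones. It rose more in clones 3 and 6 (0.86 and 0.87) than in clones 1 and 2 (0.56 each; F test adjusted p = 0.0273). As lists, the 39 fatty acid and phospholipid genes held 1 higher and 1 lower gene in every clone (2.56% each). The 22 glycolysis and hypoxia genes held 2 and 2 (9.09% each), and the 15 respiratory chain genes 2 and 1 (13.3% and 6.67%). The shares over all genes were 1.04% and 3.65%. In the mean contrast the 3 lists held 6 higher and 9 lower, 6 and 4, and 2 and 4 genes, against 7.34% and 14.9% of all genes. Their medians were -0.05, 0.12 and -0.10. The genes lower in every clone were ACSL4, another activator of fatty acids, LDHB and GAPDH of glycolysis, and UQCRB, a subunit of complex III. ACSL4 changed by -1.09, -1.17, -0.95 and -0.49, and its clone 6 call ended without clone 6 replicate 3 (-0.41). LDHB changed by -0.99, -0.95, -0.61 and -1.74, and its clone 3 call ended without parental replicate 1 (-0.53). The calls of GAPDH and UQCRB ended without any 1 of 8 and 3 arrays.

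Secreted and membrane proteases moved in both directions. Of 40 tested, 4 were higher and 3 lower in every clone (10% and 7.5%, against 1.04% and 3.65% of all genes), with a list median of 0.05. The higher ones included 3 kallikreins, serine proteases encoded side by side on chromosome 19. KLK12 was 4.74, 4.30 and 4.03 in the parental arrays and 5.65 to 7.59 in the clone arrays, and rose 4.29-fold in the mean. KLK10 changed by 0.84, 1.44, 0.94 and 0.60, and its clone 6 call ended without any 1 parental array or clone 6 replicate 1 (0.43 to 0.63). KLK11 changed by 1.02, 1.35, 0.49 and 0.91, and its clone 3 call ended without any 1 of 7 arrays (0.42 to 0.49): clone 1 replicate 2, clone 2 replicate 2, clone 3 replicates 1 and 3, clone 6 replicate 3 and parental replicates 1 and 3. MME, the cell-surface peptidase neprilysin, was 6.53, 6.65 and 7.06 in the parental arrays with a median of 4.48 over the clone arrays, none of which was above 5.22, and fell 4.68-fold in the mean. Without parental replicate 3 the list held 1 higher and 1 lower gene.

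Cytoskeletal genes included members tied to microtubules, the structure that DM1 attacks. Of 64 microtubule-associated genes, 3 rose and 1 fell in every clone (4.69% and 1.56%, against 1.04% and 3.65% of all genes), with a median of 0.03. NCKAP5, a protein that binds the growing ends of microtubules, was 5.41, 5.64 and 5.76 in the parental arrays and 6.58 to 7.26 in the clones. It rose by 1.31 in the mean (SE 0.11), with a range of 0.27 over the clones. KIF16B, a kinesin that moves early endosomes, was 8.44 to 8.52 in the parental arrays and 8.83 to 9.34 in the clones, and rose by 0.44, 0.55, 0.71 and 0.72. KIF13B, another kinesin, changed by 1.02, 1.04, 0.36 and 0.53, and its clone 3 call ended without any 1 of 5 arrays, all 3 parental arrays among them (0.27 to 0.37). Of 53 actin genes, 2 rose and 2 fell (3.77% each, against 1.04% and 3.65% of all genes), with a median of -0.03. All 4 kept their call whichever array was left out. PLEK2, a pleckstrin of the cell cortex, rose by 0.78, 1.18, 0.84 and 1.10. CFL2, a cofilin that severs actin filaments, was 6.43, 6.49 and 6.69 in the parental arrays, 5.27 to 5.94 in clones 1 and 2, and 3.55 to 4.72 in clones 3 and 6. Its change of -0.97, -1.15, -2.19 and -2.73 differed among clones (F test adjusted p = 1.23e-05).

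Splicing factors, which cut introns out of new transcripts, fell in several cases. Of 64 splicing factors tested, 10 fell and 0 rose in every clone (15.6% against 3.65% of all genes), and 25 were lower and 0 higher in the mean contrast (14.9% lower over all genes). The list median was -0.20 as deposited, -0.14 after quantile normalization and -0.12 after centring. The count was 7 under each of these 2 scalings and 4 without parental replicate 3. MBNL3, a muscleblind splicing regulator, was 6.19, 6.30 and 6.81 in the parental arrays and 3.22 to 4.79 in the clones, and fell 5.95-fold in the mean. SNRPF, SNRPD1 and SNRPD3 encode proteins of the Sm ring at the core of spliceosomal particles. SNRPF was 5.56, 5.59 and 5.82 in the parental arrays and 4.87 to 5.29 in the clones, and fell, with changes of -0.58, -0.54, -0.60 and -0.76. SNRPD3, singled out after its values were seen, was 10.90, 10.81 and 10.88 in the parental arrays and 9.59 to 10.50 in the clones, and fell, with changes of -0.68, -0.54, -1.12 and -0.49. The clone 1 call of SNRPD1 ended without clone 1 replicate 1 or parental replicate 3 (-0.50 to -0.42). HNRNPA1, an abundant RNA-binding repressor of splicing with many near-identical pseudogenes, changed by -0.74, -0.68, -1.04 and -1.29. Its calls in clones 1 and 2 ended without any 1 of 7 arrays (clone 1 replicates 1 and 2, any array of clone 2, parental replicates 2 and 3; -0.74 to -0.55) and under both other scalings. Around the list, CASC3, a part of the exon junction complex, fell, with changes of -0.67 to -0.61, and NOP58, a core protein of nucleolar particles, changed by -0.56 to -0.52.

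The promoters of the 2 Sm genes that kept their call whichever array was left out are shown because both fell in every clone. They are 300 bases each, 250 before and 50 after the start site, from RefSeq (GRCh38.p14), with each CCAAT on either strand in capitals:
SNRPF, chr12:95858702-95859001, plus strand: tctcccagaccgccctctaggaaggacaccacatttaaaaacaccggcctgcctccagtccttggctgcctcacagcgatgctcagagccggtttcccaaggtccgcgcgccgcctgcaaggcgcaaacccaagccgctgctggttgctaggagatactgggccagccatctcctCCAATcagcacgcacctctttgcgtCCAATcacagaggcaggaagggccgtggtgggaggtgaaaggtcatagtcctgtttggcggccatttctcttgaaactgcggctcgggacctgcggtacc
SNRPD3, chr22:24555400-24555699, plus strand: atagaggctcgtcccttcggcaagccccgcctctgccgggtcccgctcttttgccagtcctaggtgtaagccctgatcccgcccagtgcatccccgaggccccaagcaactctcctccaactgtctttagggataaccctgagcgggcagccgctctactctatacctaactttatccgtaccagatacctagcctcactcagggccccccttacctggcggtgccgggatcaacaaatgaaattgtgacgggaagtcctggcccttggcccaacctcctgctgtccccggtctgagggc
SNRPF held 2 matches to CCAAT and SNRPD3 held 0, which says that these letters are not in that window. Over such windows, CCAAT was found in 35.3% of 102 genes higher in every clone, 36.9% of 344 lower genes and 35.9% of 9176 genes tested. Both strands were searched. The E-box CACGTG was found in 1.96% (2 windows), 9.30% and 9.56%, and the TEAD motif CATTCC in 3.92%, 10.8% and 11.4%. The median GC content was 65.8%, 66.0% and 64.3%. These are descriptions of letters, not of bound sites.

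A list of 53 Mediator and coactivator genes was assembled after values were seen and with fallers in view. It held 15 lower and 0 higher genes in every clone (28.3% lower against 3.65% of all genes), so its count supports nothing. The count was 8 under each other scaling and 8 without parental replicate 3. KANSL1, a subunit of a histone acetyltransferase complex, was 8.01, 8.11 and 8.18 in the parental arrays and 7.09 to 7.52 in the clones, and fell, with changes of -0.74, -0.86, -0.68 and -0.88. HCFC1, a cofactor that recruits chromatin enzymes to promoters, was 9.73 to 9.83 in the parental arrays and 8.74 to 9.22 in the clones, and fell, with changes of -0.65, -0.67, -0.68 and -0.77. CRTC2, a coactivator of CREB, fell, with changes of -0.70, -0.70, -0.60 and -0.87. SETD1A, a histone H3 lysine methyltransferase, fell, with changes of -0.91, -1.02, -0.51 and -0.71, and was the 1 member of 83 chromatin genes called in every clone (1.2% against 3.65% of all genes).

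Hippo signalling restrains growth through TEAD transcription factors, and serum response factor answers to actin through its cofactor MRTFA. A list of 37 genes of both, also assembled after values were seen, held 11 lower and 0 higher genes in every clone. That is 29.7% lower against 3.65% of all genes, but in a list so made the count supports nothing. The count was 6 under each other scaling, and 6 without parental replicate 3 or clone 3 replicate 2. TEAD2 was 9.08, 9.13 and 9.20 in the parental arrays and 8.13 to 8.72 in the clones, and fell, with changes of -0.61, -0.66, -0.82 and -0.94. VGLL1, a TEAD cofactor, was 5.98 to 6.19 in the parental arrays and 4.18 to 5.54 in the clones, and fell in every clone, with a change of -0.69 in clone 3 against -1.51 to -1.44 in the others. MRTFA fell, with changes of -0.74, -0.64, -0.65 and -0.76, and PXN, the focal adhesion scaffold paxillin, changed by -0.65, -0.78, -0.73 and -1.05.

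The secretory pathway held both higher and lower genes. Another list made after values were seen, 81 genes of endoplasmic reticulum entry, coats and Golgi, held 8 higher and 2 lower genes in every clone. These were 9.88% and 2.47%, against 1.04% and 3.65% of all genes, and such a count supports nothing. Without parental replicate 2 the list held 1 higher gene. GOLGA5, a golgin that tethers vesicles, was 9.10 to 9.20 in the parental arrays and 9.50 to 9.98 in the clones, and rose by 0.54, 0.50, 0.53 and 0.70. KDELR1, the receptor that returns chaperones to the endoplasmic reticulum, was 10.10 to 10.24 in the parental arrays and 9.23 to 9.79 in the clones, and fell, with changes of -0.66, -0.79, -0.84 and -0.65. TRAPPC1, a subunit of a vesicle tethering complex, fell, with changes of -1.26, -1.19, -0.65 and -0.77.

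Of 69 mitotic genes, 21 were lower and 1 higher in the mean contrast, and 4 were lower in every clone (FOXM1, CDC20, AURKB and CCNB1). That is 5.8% lower in every clone against 3.65% of all genes, and against 5.72% in the brightest of 5 groups of genes by mean level. Over all genes, 14.9% were lower in the mean contrast. The list median was -0.23 as deposited and -0.15 after centring, under which 0 members were called in every clone. By clone, the deposited median was uneven, at -0.06, -0.07, -0.32 and -0.43 in clones 1, 2, 3 and 6. CDC20, the activator of the anaphase-promoting complex, changed by -0.64, -0.42, -0.62 and -1.18, and its clone 2 call ended without any 1 of 11 arrays, all 3 parental arrays among them (-0.47 to -0.28). Leaving out any 1 parental array left 0 members of the list. Of 23 BCL2 family and death receptor genes, 3 were lower in every clone (13% against 3.65% of all genes) and 6 lower and 2 higher in the mean contrast, and BCL2 kept its call throughout. The clone 3 calls of BAX and BCL2L1, which act in opposite directions on cell death, ended without parental replicate 3 (-0.47 and -0.38), that of BAX also without clone 3 replicate 1 (-0.62) and that of BCL2L1 without clone 3 replicate 3 (-0.37). Without parental replicate 3 the list held 1 lower gene.

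MicroRNA genes are measured here by probe sets for the gene or its precursor, not for the mature form. Of 505 tested, 3 were higher and 6 lower in every clone, which are smaller shares than the 1.04% and 3.65% of all genes. Mature sequences of all 9 were matched by name in RefSeq, and their 16 mature forms had 16 distinct seeds, so no seed was shared. A selection of 7 from 6 of these genes is shown to identify the genes described next, 5' to 3' with the seed (bases 2 to 8) in capitals:
hsa-miR-30a-5p, chr6:71403595-71403616, minus strand: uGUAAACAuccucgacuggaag
hsa-miR-30a-3p, chr6:71403554-71403575, minus strand: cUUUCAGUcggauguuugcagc
hsa-miR-4781-3p, chr1:54054124-54054145, plus strand: aAUGUUGGaauccucgcuagag
hsa-miR-4653-3p, chr7:101159524-101159546, plus strand: uGGAGUUAaggguugcuuggaga
hsa-miR-3671, chr1:65057762-65057783, minus strand: aUCAAAUAaggacuagucugca
hsa-miR-543, chr14:101032033-101032054, plus strand: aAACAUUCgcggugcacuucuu
hsa-miR-424-5p, chrX:134546680-134546701, minus strand: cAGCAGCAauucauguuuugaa
MIR30A was 3.96, 4.18 and 3.77 in the parental arrays and 4.59 to 5.58 in the clone arrays, and rose by 1.03, 1.37, 1.02 and 0.98 (SE 0.23). MIR4781 rose by 1.03, 0.82, 0.70 and 0.71. The gene that overlaps it, TCEANC2, changed by 0.18 in the mean (adjusted p = 0.236).

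Among the lower microRNA genes, MIR3671 was 5.67, 5.31 and 6.18 in the parental arrays and 3.80 to 4.83 in the clones, and its change of -1.28, -1.22, -1.26 and -1.27 was the same in the 4 clones to within 0.06. JAK1, which overlaps it, changed by 0.12 (adjusted p = 0.294). MIR4653 was 6.86 to 7.32 in the parental arrays and 4.91 to 6.21 in the clones, and fell 2.86-fold in the mean. MIR543 fell, with changes of -0.73, -0.91, -0.97 and -0.94. The clone 3 call of MIR424 ended without parental replicate 2 or 3 (-0.44 to -0.41). MIR3944, MIR3192 and MIR7-1 lost a call without any 1 of 3, 4 and 12 arrays.

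Most genes called in every clone changed by amounts that were not told apart among the clones. The F test among the 4 clones called 30 of the 126 higher genes (23.8%) and 114 of the 443 lower genes (25.7%), near the 22.5% of all genes tested. Among changes of at least 1.5-fold, the most even included GPR155 (range 0.07), ARID3B, a DNA-binding regulator (0.06), PRRG4, a membrane protein with a Gla domain (0.06), and CASC3 (0.07). The most uneven included TMTC1, a mannosyltransferase of the endoplasmic reticulum, which was 7.31 to 7.45 in the parental arrays. It read 6.30 to 6.79 in clones 1 and 2 and 4.12 to 4.93 in clones 3 and 6, a range of 2.28 between clones. ELF4, an ETS transcription factor, changed by -1.81 in clone 6 and by -0.62 to -0.52 in the others. GLI3, a Hedgehog pathway factor, changed by -0.49 and -0.54 in clones 1 and 2 and by -1.51 and -1.65 in clones 3 and 6. CLCA2, a regulator of chloride channels, rose by 2.79 in clone 3 and by 1.30 to 1.49 in the others.

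**Figure D4:**
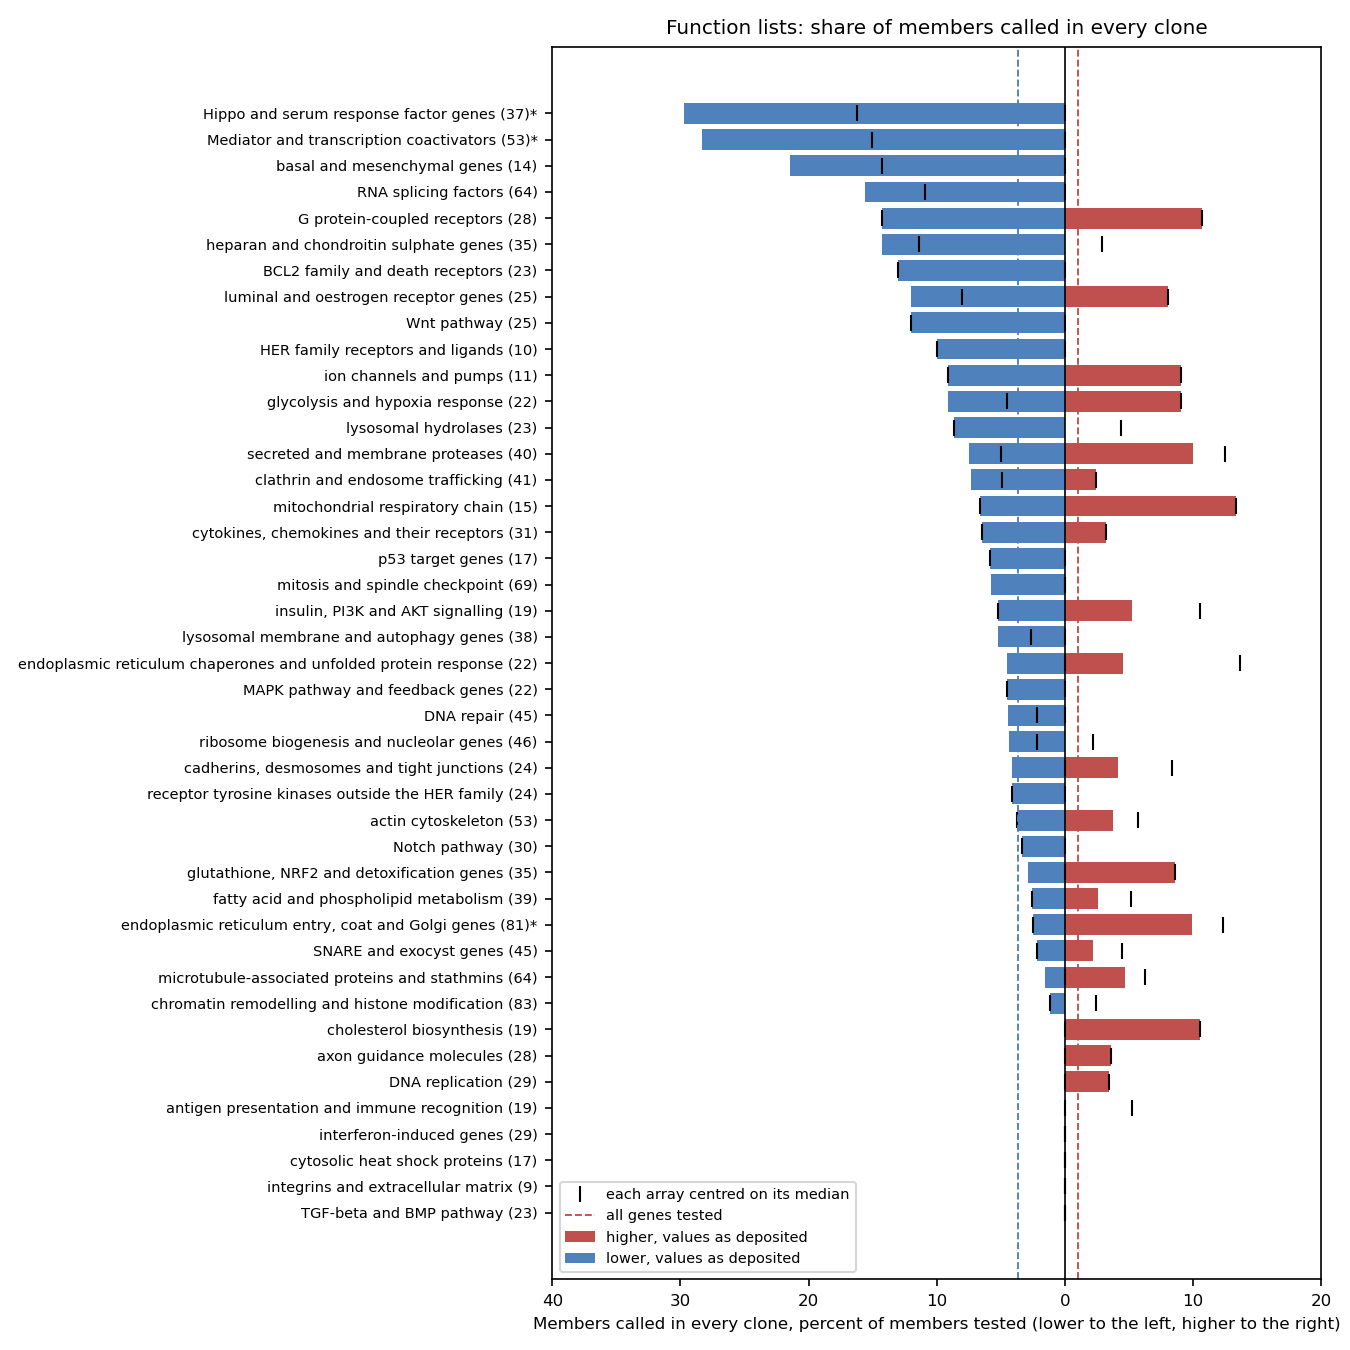
Share of the members of each function list called in every clone, lower to the left (blue) and higher to the right (red), with the number tested in brackets, dashed lines at the 3.65% and 1.04% of all genes tested, and ticks for arrays centred on their medians. Lists with a star were made after values were seen, and the others were written with earlier results of these data known. Splicing factors stand at 15.6% lower and 0% higher.

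Other lists gave few or no members, and not all are described. Of 19 cholesterol biosynthesis genes, 2 were higher and 0 lower in every clone (10.5% higher), and 0 kept that call whichever array was left out. In the mean contrast, 12 of 28 axon guidance genes were lower and 3 higher (median -0.20). Of 17 p53 target genes, 5 were lower and 0 higher in that contrast (median -0.24). In every clone, 1 axon guidance gene was higher and 1 p53 target lower. Of 29 interferon-induced genes, 23 TGF-beta and BMP genes, 17 cytosolic heat shock proteins and 9 integrin and matrix genes, 0 were called in every clone, although the mean contrast of the limma fit called 1, 1, 1 and 1 of them higher and 5, 3, 4 and 1 lower. Of 19 antigen presentation and immune recognition genes, 0 were called in every clone as deposited, 8 were lower and 1 higher in the mean, and the median was -0.28. Over all genes tested, 4.68% were called in every clone in either direction. The mean contrast called 7.34% of all genes higher and 14.9% lower.

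**Figure D5:**
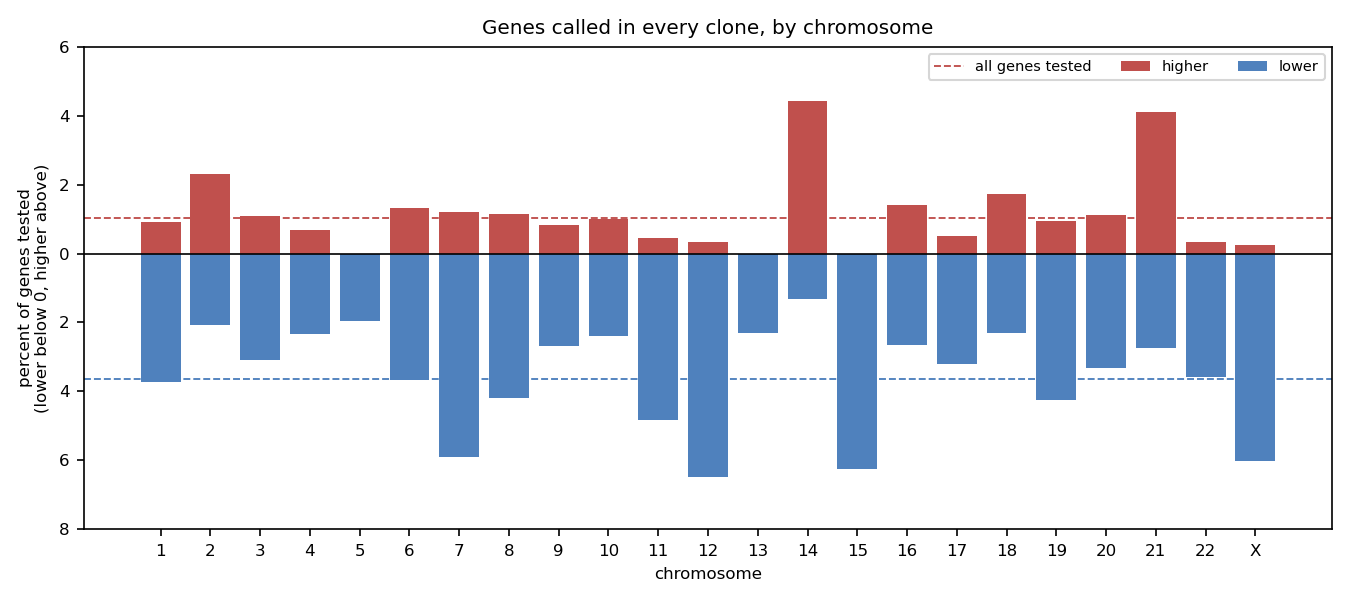
Percentage of tested genes on each chromosome that were higher (red) or lower (blue) in every clone, with dashed lines at the shares over all genes tested. Chromosome 14 has 4.44% higher and chromosome 12 has 6.5% lower genes.

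By chromosome, the share of genes higher in every clone was 4.44% on chromosome 14 (17 of 383), 4.11% on chromosome 21 (6 of 146) and 0% on chromosomes 5, 13 and 15. The share of lower genes ran from 1.31% on chromosome 14 to 6.5% on chromosome 12 (40 of 615). In windows of 21 neighbouring tested genes, which were chosen for holding the most calls and are described with no test, the most was 6 lower genes, from S100A1 to PYGO2 on chromosome 1, with a median change of -0.06 over all 21. Of the 7 windows with 5 calls, the 3 with the largest medians are given. In 1 of them, 5 were higher from RTN1 to PLEK2 on chromosome 14 (DHRS7, TRMT5, SGPP1, GPX2 and PLEK2), where the median change of all 21 was 0.31. Another 5 were higher from AMER3 to KYNU on chromosome 2 (NCKAP5, RAB3GAP1, MCM6, CXCR4 and KYNU; median 0.32). From ZNF747 to BCKDK on chromosome 16, 5 were lower (ZNF764, PRR14, FBRS, SETD1A and BCKDK; median -0.45). The others held lower genes, on chromosomes 7, 12, 15 and X, with medians of -0.21 to -0.16.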

How the data were processed

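RNA of 5 lines, 3 samples each, was hybridised to 15 Affymetrix arrays. Per the submitters' processing notes, RMA and Affymetrix Expression Console 1.4.1 were used. The authors deposited log2 values per probe set, which were used without further normalization in the main fit. No depth applies to arrays, and 3 per line limit the precision. Probe sets (30.0% with 1 symbol) were named through the platform table and RefSeq gene identifiers. The build behind the probe sets was not stated in the labels. A gene was tested if its probe set exceeded the 40th percentile of its array in at least 3 arrays.

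limma 3.58.1 in R 4.3.3 fitted 1 mean per line with eBayes and Benjamini-Hochberg adjustment over 12147 genes. Scripts were tested on simulated data. Genes named are those called in every clone: the first 3 in each direction, ranks 16 to 40, up to 4 per function list, the 5 most even and 5 most uneven each way, microRNAs and identity markers, 156 in all, of which 87 kept their call whichever array was left out. Others are said to be singled out or stand in a list's or window's members. Members and lists were chosen with earlier results of these data known. Function lists were described by counts and medians, with no test of the list.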

Additional observations from a re-analysis of the deposited data

Results flagged for a closer look

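The size of the change differed among the 4 clones for 53 of the genes named by the rule (F test, adjusted p below 0.05), although each was called with 1 sign in every clone. The range of the log2 change over the clones is given in brackets.

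Among higher genes these were CLCA2 (1.48), SYNPO2L (1.18), TFF1 (0.92), GNE (0.88), KLK11 (0.86), KLK10 (0.84), KIF13B (0.68), DHRS7 (0.64), CYLD (0.57), DALRD3 (0.51), PIK3IP1 (0.49), SNX3 (0.48), CXCL17 (0.48), HILPDA (0.39) and COX4I1 (0.31). Among lower genes, the widest ranges were those of GATA3 (2.38), TMTC1 (2.28), CFL2 (1.77), NCAM2 (1.70), ELF4 (1.29), DKK1 (1.20), GLI3 (1.16), LDHB (1.13) and CTTNBP2 (1.11). Next came NRK (1.11), GPC6 (1.09), FJX1 (1.00), MBNL3 (0.97), SMAGP (0.92), VGLL1 (0.82), MAP1LC3A (0.80), ZNF703 (0.80) and SDC2 (0.79). Then followed NPY1R (0.77), MKX (0.76), CDC20 (0.75), CAPRIN2 (0.72), VIM (0.71), SPMIP4 (0.71), ACSL4 (0.68), BCL2L1 (0.64) and TRAPPC1 (0.61). Smaller ranges were found for TWIST1 (0.57), CCNB1 (0.56), DCLK2 (0.56), STX2 (0.55), TPP1 (0.53), HMGN5 (0.53), NOP10 (0.52), SETD1A (0.51) and ZNF592 (0.50). The smallest of these ranges were those of CTSC (0.44) and FZD6 (0.42).

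Of 21751 probe sets without a symbol that passed the filter, 178 were higher and 418 lower in every clone, which were not described by gene.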

How the results depend on the processing

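Counts are given as mean contrast higher and lower, then every clone higher and lower, against 892, 1811, 126 and 443. Leaving out 1 array in turn gave 427 to 933, 1042 to 1846, 54 to 120 and 237 to 454. Leaving out clone 3 gave 235 and 668 in every clone. Quantile normalization gave 1316, 1310, 196 and 306, and centring 1697, 1252, 239 and 303. Array weights gave 1538, 2510, 207 and 619. An adjusted p below 0.01 gave 407, 1082, 41 and 200. At least 1.5-fold gave 148, 467, 28 and 152, and at least 2-fold gave 28, 81, 7 and 24. The clone as a random block (correlation 0.274) gave 98 and 398, and 4 clone means against 1 gave 1 and 4. Other filters, probe set averaging and trend with robust settings kept all 4 counts within 1.5 times. Centring moved the median change of all genes from -0.01 to 0.07. The replicate number as a block gave 975, 1937, 145 and 489. Of 30 same-numbered pairs, 10 correlated above 0.1 (-0.129 to 0.462), all of them between clones and 0 of 12 with a parental array, and 9 of 15 arrays correlated best with their own number. Since 0 of 12 pairs with a parental array were above 0.1, the numbers were not taken to pair clones with parental arrays. Spread shared by same-numbered clone arrays was left in the main fit, which treats arrays as independent. The replicate block above includes it as a term. Beyond the counts, 69 of the 156 named genes lost a call in some clone without 1 array. No named gene changed sign. The fit on the genes of the full fit for 5 genes below the renewed filter was chosen after seeing the data.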
